A study of Mus musculus with 12 samples.

Results

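Kcnk2 and Kcnk3 encode subunits of two-pore potassium channels, and both are among the 24452 genes listed in an RNA sequencing study of mouse brown adipose tissue, the fat depot that makes heat. The 2 genes were chosen by name, with their levels and their responses to genotype and agonist in these libraries already known, so their values are a description and carry no test. The study had 12 libraries in 4 groups of 3. ERRKO_CL and ERRKO_PBS came from ERRαγAd-/- mice, which carry floxed alleles of the nuclear receptors ERRα and ERRγ together with an adiponectin-driven Cre recombinase. WT_CL and WT_PBS came from littermates with the same floxed alleles and no Cre. CL groups were injected daily into the peritoneum with 1 mg/kg the β3-adrenergic agonist CL316,243 for 10 days, and PBS groups with the vehicle. All mice were C57BL/6J Bom males, 12 weeks old, kept at 30 °C, and tissue was taken 24 h after the last injection. The adiponectin promoter acts in adipocytes, so other cells of the depot keep both receptors. Whether each library came from its own animal is not labelled, so every SD and p-value covers only the spread between these samples.

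Two-pore channels are dimers that stay open near the resting potential and let potassium leave the cell, which holds the membrane negative. Kcnk2 encodes TREK-1, which opens to membrane stretch, warmth, intracellular acid and polyunsaturated fatty acids, and which closes when protein kinase A or C phosphorylates it. Kcnk3 encodes TASK-1, which is shut by extracellular acid and inhibited through Gq-coupled receptors. In mouse thermogenic adipocytes Kcnk3 is known for its high expression and for limiting the calcium entry and lipolysis that adrenergic stimulation evokes.

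Each subunit has 2 pore loops, and the lines below show the coding bases of those loops because they are what defines the family and show how far the 2 genes can be told apart by reads. They come from the GENCODE M21 transcripts number 206 of Kcnk2, with 426 codons, and number 201 of Kcnk3, with 409 codons, on GRCm38. Capitals mark the 5 codons of each selectivity filter.
Kcnk2 filter 1: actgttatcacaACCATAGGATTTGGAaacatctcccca
Kcnk2 filter 2: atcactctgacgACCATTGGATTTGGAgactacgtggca
Kcnk3 filter 1: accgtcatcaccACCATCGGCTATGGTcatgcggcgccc
Kcnk3 filter 2: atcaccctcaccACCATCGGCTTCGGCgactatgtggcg
The second filters lie in single exons, that of Kcnk2 at chr1:189256569-189256607 on the minus strand and that of Kcnk3 at chr5:30622190-30622228 on the plus strand. Both first filters are interrupted by an intron. Of the 15 filter bases, 1 differed between the 2 loops of Kcnk2, 3 between the loops of Kcnk3, and 4 between any loop of Kcnk2 and any loop of Kcnk3. The longest run of identical bases in these transcripts was 20 bases between Kcnk2 and Kcnk3. It was 17 bases between Kcnk2 and its nearest relatives Kcnk10 and Kcnk4, and 20 and 23 bases between Kcnk3 and its relatives Kcnk9 and Kcnk15.

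Kcnk2 (ENSMUSG00000037624.15) spans chr1:189207930-189402273 on the minus strand of GRCm38, with 10 annotated transcripts of which 6 code for protein. Kcnk3 (ENSMUSG00000049265.7) spans chr5:30588170-30625271 on the plus strand, with 2 transcripts of which 1 codes for protein. The RefSeq promoter table on GRCm38.p6 holds 4 windows for Kcnk2, each from 250 bases before to 50 bases after a start, and the gene-level values do not show which start was used. The most upstream window and the third are printed because they stand for the 2 kinds of start that were searched for receptor motifs, with CG pairs in capitals.
Kcnk2 window 1, chr1:189402224-189402523, minus strand: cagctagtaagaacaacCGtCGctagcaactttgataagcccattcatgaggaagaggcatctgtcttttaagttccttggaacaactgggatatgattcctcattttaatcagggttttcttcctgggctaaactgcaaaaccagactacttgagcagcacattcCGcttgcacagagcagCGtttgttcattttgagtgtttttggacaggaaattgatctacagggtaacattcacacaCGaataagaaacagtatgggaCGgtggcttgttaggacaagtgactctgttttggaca
Kcnk2 window 3, chr1:189343658-189343957, minus strand: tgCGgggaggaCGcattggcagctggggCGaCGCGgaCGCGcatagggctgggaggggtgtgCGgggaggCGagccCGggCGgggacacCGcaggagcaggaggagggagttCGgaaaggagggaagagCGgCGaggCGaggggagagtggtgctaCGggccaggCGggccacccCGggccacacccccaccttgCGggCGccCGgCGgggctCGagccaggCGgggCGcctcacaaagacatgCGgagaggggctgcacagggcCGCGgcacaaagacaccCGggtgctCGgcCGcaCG
Window 1 held 6 CG pairs and 43% G or C, and window 3 held 33 CG pairs and 74.7%, against medians of 7 CG pairs and 52.7% over the 32851 windows of the table. Both strands of the 4 Kcnk2 windows were searched for the ERR response element TCAAGGTCA and its form TNAAGGTCA, the nuclear receptor core AGGTCA that both contain, the cAMP response element TGACGTCA and its shorter form TGACG. None of these letters occurred in any of the 4 windows. No promoter window was available for Kcnk3, so it was not searched. Over all windows of the table the shares were 0.423% for TCAAGGTCA, 1.28% for TNAAGGTCA, 16.3% for AGGTCA, 1.79% for TGACGTCA and 20.8% for TGACG.

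Levels are RPKM, read numbers divided by gene length and by a library size that no source used here states. On the deposited scale the median log2 difference over all tested genes was 0.53 for ERRKO_PBS over WT_PBS and 0.63 for ERRKO_CL over WT_CL. The main values therefore use RPKM rescaled in each library by a median of ratios, which brings those medians to 0.01. Recovered reads per library numbered 12468001 to 12954186 in ERRKO_CL, 12822176 to 13263567 in ERRKO_PBS, 8979123 to 9559239 in WT_CL and 8478310 to 9727167 in WT_PBS. Esrra, which encodes ERRα, ranged from 5.26 to 8.90 RPKM in the 6 ERRKO libraries and from 41.7 to 83.2 in the 6 WT libraries. Esrrg, which encodes ERRγ, ranged from 6.38 to 8.13 RPKM in ERRKO_CL, 2.297 to 4.72 in ERRKO_PBS, 5.62 to 8.14 in WT_CL and 4.41 to 8.27 in WT_PBS, and a value over the whole gene does not show the loss of single exons. All 7 brown adipocyte markers were above 0 in every library. The summed level of 10 skeletal muscle markers reached 1610 RPKM in ERRKO_CL replicate 3 and 2901 in ERRKO_PBS replicate 3, against at most 410 in any WT library. The differences of Kcnk2 and Kcnk3 are therefore also given without those 2 libraries. ERRKO_CL replicate 2, at 734 RPKM, was above every WT library too and stays in that fit, so leaving them out does not bring ERRKO_CL to the WT range. Between the groups limma, at an adjusted p of 0.05, called 34.2% of 12249 genes for ERRKO_PBS over WT_PBS, 41.5% for ERRKO_CL over WT_CL, 30.5% for WT_CL over WT_PBS, 10.3% for ERRKO_CL over ERRKO_PBS and 3.89% for the interaction of genotype and agonist.

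Kcnk2 was nearly silent in WT_PBS and highest in ERRKO_CL. Its level was 21.5, 21.9 and 27.1 RPKM in the ERRKO_CL libraries, 12.0, 13.9 and 12.3 in ERRKO_PBS, 3.91, 2.85 and 2.64 in WT_CL, and 0.424, 0.551 and 0.276 in WT_PBS. The means were 23.5 ± 3.12 RPKM in ERRKO_CL, 12.7 ± 1.05 in ERRKO_PBS, 3.13 ± 0.682 in WT_CL and 0.417 ± 0.137 in WT_PBS (SD, n = 3 each). The order of the groups was the same on the deposited scale, and no library of any group fell inside the range of another group on either scale. The counts behind these levels were 1798, 1732 and 2158 reads in ERRKO_CL, 1103, 1184 and 1149 in ERRKO_PBS, 198, 141 and 129 in WT_CL, and 26, 31 and 16 in WT_PBS. The exact Poisson 95% interval of the lowest of them, 16 reads, was 9.14 to 26.0, and intervals of this kind cover counting error only. Kcnk2 passed the filter of a mean RPKM of at least 0.5 over all libraries through the other groups, since WT_PBS averaged less than that.

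Kcnk3 was high in every library and, on the median-ratio scale, lower in both ERRKO groups. Its level was 37.4, 41.2 and 41.7 RPKM in ERRKO_CL, 19.9, 33.6 and 25.5 in ERRKO_PBS, 68.0, 76.0 and 64.8 in WT_CL, and 60.4, 60.4 and 53.9 in WT_PBS. The means were 40.1 ± 2.37 RPKM in ERRKO_CL, 26.3 ± 6.88 in ERRKO_PBS, 69.6 ± 5.75 in WT_CL and 58.2 ± 3.75 in WT_PBS (SD, n = 3 each). ERRKO_PBS was the most variable group, and its highest library lay below every library of the other groups. Each value rested on 1692 to 3476 reads, so counting error is small beside the spread between libraries.

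The order of the Kcnk3 groups changed with the scale. Deposited RPKM were 44.6, 47.6 and 48.8 in ERRKO_CL, 27.3, 43.8 and 34.7 in ERRKO_PBS, 48.5, 54.5 and 45.7 in WT_CL, and 55.7, 54.7 and 45.6 in WT_PBS. On that scale ERRKO_CL overlapped both WT groups, WT_CL overlapped WT_PBS, and ERRKO_PBS stayed the lowest group, apart from the others. In bulk tissue, fewer cells of a type and less RNA per cell cannot be told apart for either gene.

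**Figure D1:**
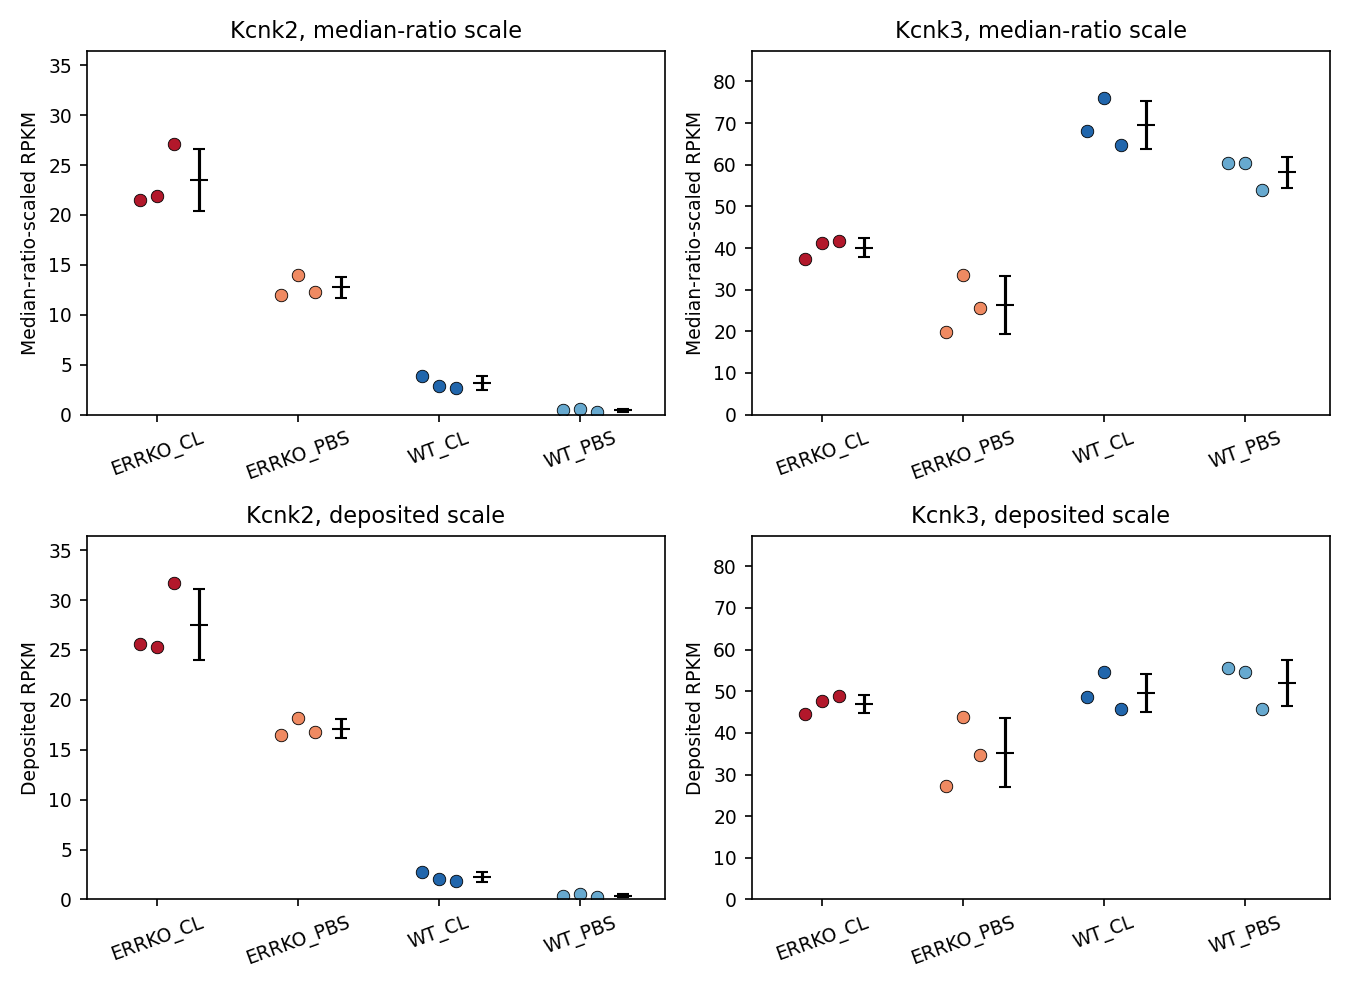
Levels of Kcnk2 (left) and Kcnk3 (right) in RPKM for the 12 libraries by group, on the median-ratio scale (top) and the deposited scale (bottom); points are libraries, and the bar beside them is the mean with the SD of 3 libraries. The 4 groups of Kcnk2 stay apart on both scales, whereas the Kcnk3 groups ERRKO_CL, WT_CL and WT_PBS separate at the top (means 40.1, 69.6 and 58.2) and overlap at the bottom.

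Deletion of both receptors went with more Kcnk2 under either injection. Under PBS the Kcnk2 mean in ERRKO was 30.6 times that in WT, a log2 difference of 3.86 ± 0.15 (SE), and under CL316,243 it was 7.50 times, a log2 difference of 2.73 ± 0.15. On the deposited scale the same ratios were 45.7 and 12.3. Because 0.5 is added before the logarithm and WT_PBS averaged 0.417 RPKM, the log2 difference under PBS understates the ratio, and edgeR on the recovered reads gave 4.95. Without both ERRKO replicate 3 libraries the log2 differences were 3.88 ± 0.17 under PBS and 2.63 ± 0.17 under CL316,243.

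For Kcnk3 the genotype difference had the opposite sign to that of Kcnk2. The ERRKO mean was 0.453 times the WT mean under PBS, a log2 difference of -1.16 ± 0.15 (SE), and 0.576 times under CL316,243, a log2 difference of -0.79 ± 0.15. On the deposited scale these ratios were 0.678 and 0.947, and the log2 differences -0.57 ± 0.15 and -0.07 ± 0.15. The size under CL316,243 thus rests on the scaling of the libraries. edgeR on the recovered reads gave -1.12 under PBS and -0.80 under CL316,243. Without both ERRKO replicate 3 libraries the log2 differences were -1.15 ± 0.18 under PBS and -0.81 ± 0.18 under CL316,243.

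CL316,243 went with more Kcnk2 in both genotypes. The Kcnk2 mean in ERRKO_CL was 1.84 times that in ERRKO_PBS, a log2 difference of 0.85 ± 0.15 (SE), and the mean in WT_CL was 7.52 times that in WT_PBS, a log2 difference of 1.98 ± 0.15. The ratio was the smaller in ERRKO, with an interaction of -1.13 ± 0.21 on the log2 scale. The difference of the means was the larger in ERRKO, 10.8 RPKM in ERRKO and 2.72 RPKM in WT. Without both ERRKO replicate 3 libraries the log2 difference in ERRKO was 0.73 ± 0.19 and the interaction -1.25 ± 0.25. The interaction ranged from -2.06 with edgeR on the recovered reads to -0.71 with 1 added before the logarithm. Each group enters 1 genotype and 1 agonist comparison, so these comparisons share libraries.

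Kcnk3 was higher after CL316,243 in ERRKO mice, and in WT mice its difference depended on the scale. ERRKO_CL averaged 1.52 times ERRKO_PBS, a log2 difference of 0.63 ± 0.15 (SE), and 1.33 times on the deposited scale, 0.43 ± 0.15. WT_CL averaged 1.20 times WT_PBS on the median-ratio scale, with a log2 difference of 0.26 ± 0.15, and 0.954 times on the deposited scale, with -0.07 ± 0.15. Quantile normalization gave 0.06 ± 0.16 for that difference. The interaction of Kcnk3 was 0.37 ± 0.21 on the median-ratio scale and 0.50 ± 0.21 on the deposited scale. Without both ERRKO replicate 3 libraries the log2 difference in ERRKO was 0.59 ± 0.20 and the interaction 0.34 ± 0.26.

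**Figure D2:**
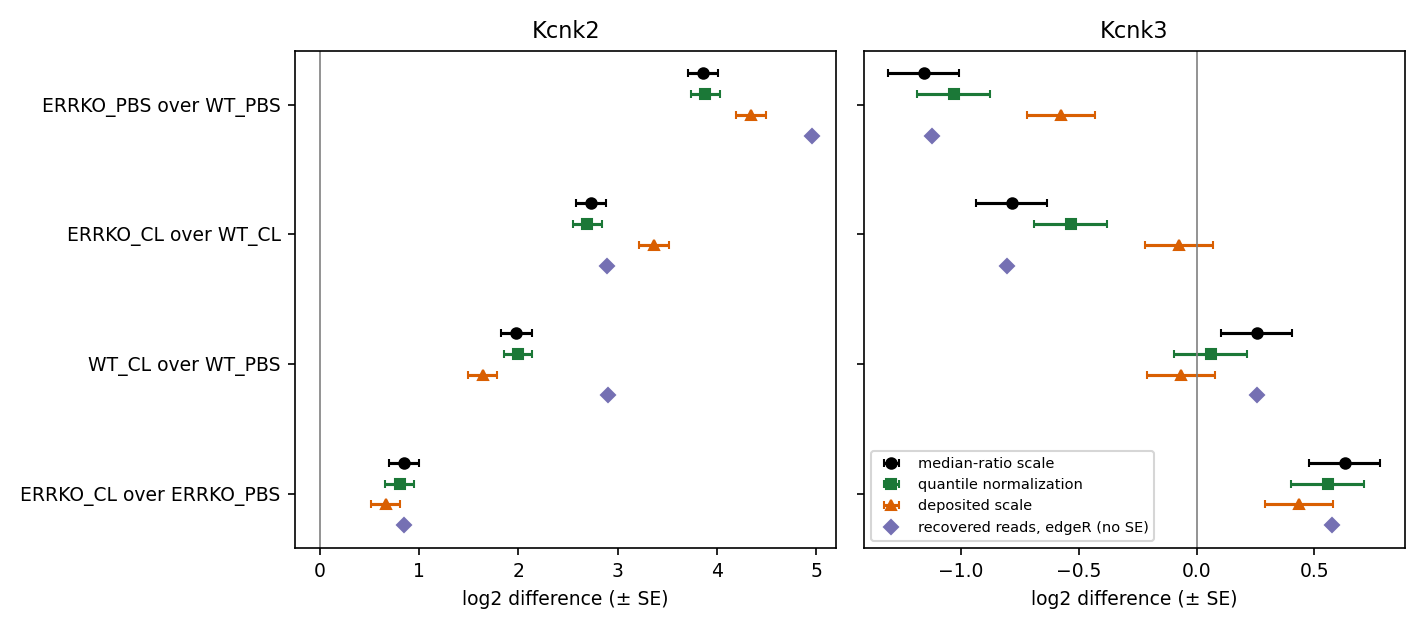
Log2 differences of Kcnk2 (left) and Kcnk3 (right) in 4 comparisons under the median-ratio, quantile and deposited scales of RPKM, with bars of 1 SE, and under edgeR on the recovered reads, which has no SE here. All Kcnk2 points lie above 0, while the Kcnk3 point for WT_CL over WT_PBS is 0.26 on the median-ratio scale and -0.07 on the deposited scale.

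The ratio of the 2 genes within a library does not depend on how libraries are scaled to each other. Kcnk2 over Kcnk3 was 0.575, 0.532 and 0.650 in ERRKO_CL, 0.602, 0.415 and 0.483 in ERRKO_PBS, 0.0576, 0.0375 and 0.0408 in WT_CL, and 0.00702, 0.00912 and 0.00513 in WT_PBS. The 2 ERRKO groups overlapped in this ratio, at means of 0.586 ± 0.060 in ERRKO_CL and 0.5002 ± 0.095 in ERRKO_PBS. Both lay above every WT library, and WT_CL at 0.0453 ± 0.0108 lay above WT_PBS at 0.00709 ± 0.00200 (SD, n = 3 each).

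Together the 2 genes held nearly all two-pore channel RPKM in every group. Kcnk2 made up 36.2% ± 2.41 of it in ERRKO_CL, 31.8% ± 3.88 in ERRKO_PBS, 4.23% ± 0.964 in WT_CL and 0.685% ± 0.193 in WT_PBS (SD, n = 3 each). The share of Kcnk3 was 61.9% ± 2.17 in ERRKO_CL, 64.0% ± 4.16 in ERRKO_PBS, 93.6% ± 0.875 in WT_CL and 96.6% ± 0.275 in WT_PBS. The sum of Kcnk2 and Kcnk3 was 58.9, 63.1 and 68.9 RPKM in ERRKO_CL, 31.9, 47.5 and 37.9 in ERRKO_PBS, 71.9, 78.8 and 67.5 in WT_CL, and 60.8, 60.9 and 54.1 in WT_PBS. On this scale the sums of ERRKO_CL overlapped those of both WT groups, and the sums of ERRKO_PBS lay below all the others.

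**Figure D3:**
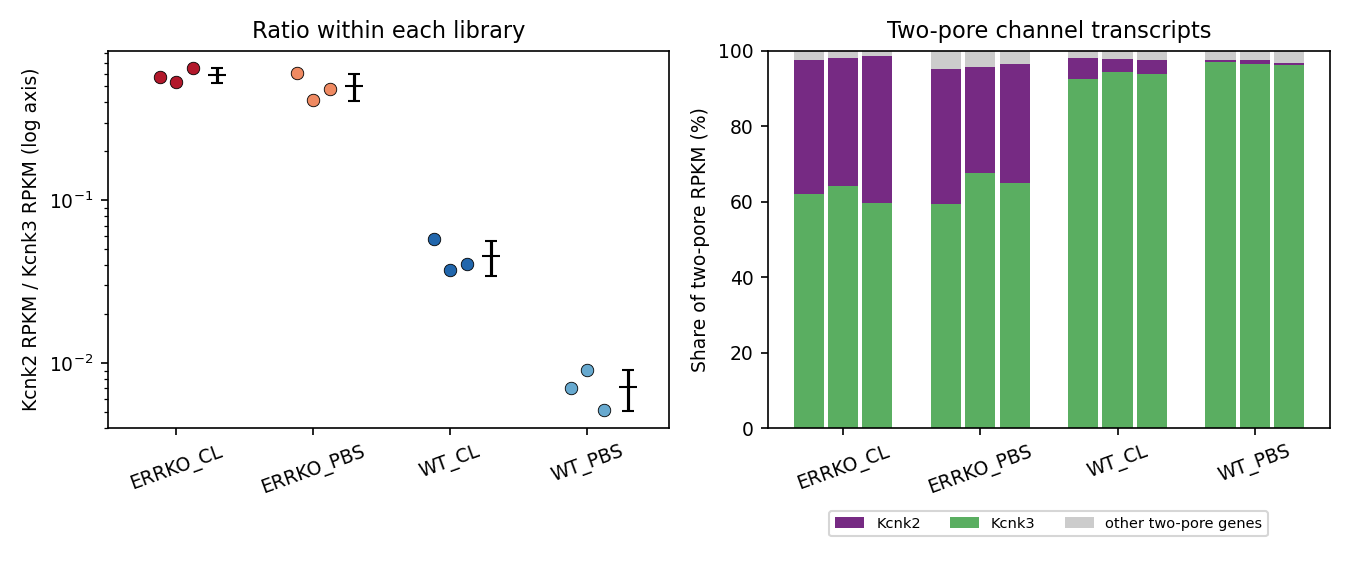
Left, the RPKM of Kcnk2 divided by that of Kcnk3 in each of the 12 libraries on a log axis, with the mean and SD of 3 libraries beside each group. Right, each bar is 1 library and shows the percent of summed two-pore channel RPKM that belongs to Kcnk3, Kcnk2 and the other genes of the family; Kcnk2 averages 36.2% in ERRKO_CL, 31.8% in ERRKO_PBS, 4.23% in WT_CL and 0.685% in WT_PBS.

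The other 12 two-pore genes of the files stayed low. Kcnk9, Kcnk15, Kcnk16 and Kcnk18 were listed at 0 in every library, and Kcnk6 alone among the 12 reached the filter. Kcnk6, which encodes TWIK-2, averaged 0.768 ± 0.120 RPKM in ERRKO_CL, 0.949 ± 0.156 in ERRKO_PBS, 0.631 ± 0.118 in WT_CL and 0.901 ± 0.102 in WT_PBS. limma called it in 0 of the 5 comparisons, as did edgeR and DESeq2 on the recovered reads, and its unadjusted p was under 0.05 in 1 of them, WT_CL over WT_PBS. With deposited RPKM limma called it in 3, at 0.44 for ERRKO_PBS over WT_PBS, 0.56 for ERRKO_CL over WT_CL and -0.46 for WT_CL over WT_PBS. Kcnk5, which encodes the alkali-sensitive TASK-2, averaged 0.174 to 0.360 RPKM over the groups, and Kcnk13, which encodes THIK-1, 0.134 to 0.350. Kcnk4, which encodes the stretch-sensitive TRAAK and is the nearest relative of Kcnk2 measured above 0 in all groups, averaged 0.0490 RPKM in ERRKO_CL, 0.0343 in ERRKO_PBS, 0.304 in WT_CL and 0.0806 in WT_PBS. Kcnk12 averaged 0.0262 RPKM in ERRKO_CL, 0.00764 in ERRKO_PBS, 0.212 in WT_CL and 0.0361 in WT_PBS. Kcnk1, Kcnk7 and Kcnk10 averaged at most 0.0727 RPKM in any group.

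Among the 96 potassium channel genes of the files Kcnk3 had the highest RPKM in all 12 libraries. Kcnk2 ranked second in all 6 ERRKO libraries, sixth, sixth and eighth in WT_CL, and 20, 21 and 23 in WT_PBS. Ranks compare genes within a library and per length, so they do not depend on the scaling.

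**Figure D4:**
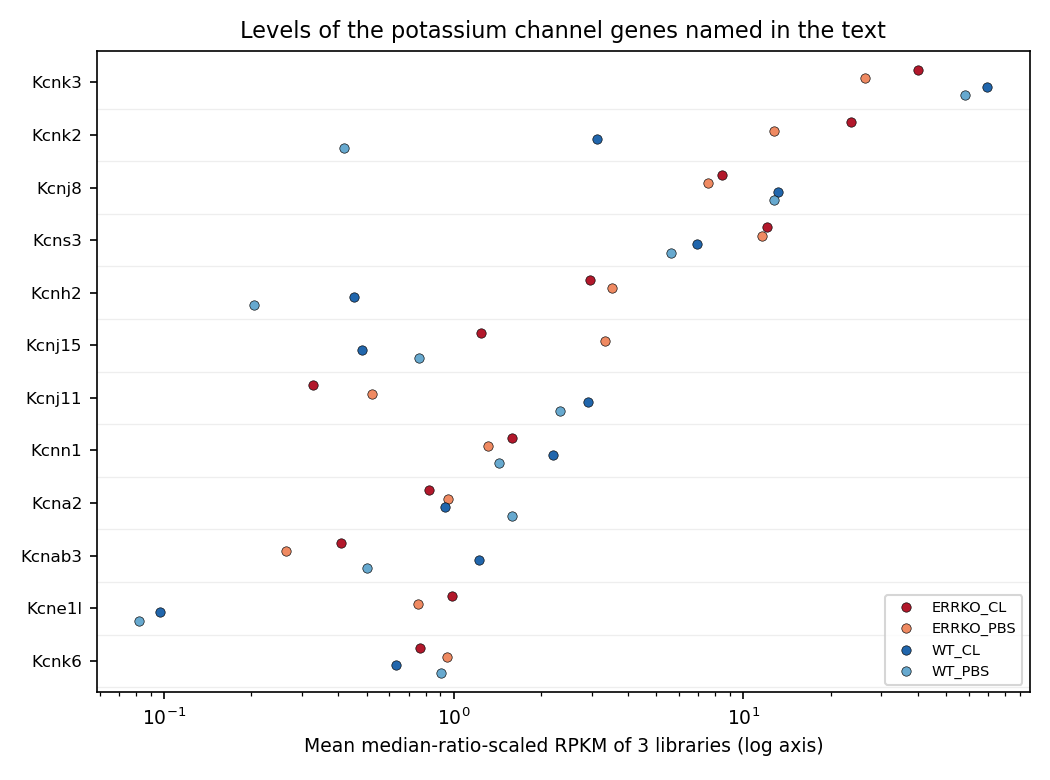
Group means of median-ratio-scaled RPKM, on a log axis, for Kcnk2, Kcnk3 and 10 other potassium channel genes that are described in the text, each point the mean of 3 libraries. Kcnk3 lies furthest right in every group, and Kcnk2 spans the widest range, with 23.5 in ERRKO_CL and 0.417 in WT_PBS.

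The remaining 94 potassium channel genes were read from 4 lists, and 23 of them reached the filter. Where 3 values of such a gene are given for a group, they run from the lowest library to the highest. For ERRKO_PBS over WT_PBS 7 of the 23 rose and 3 fell, or 43.5% in either direction against 34.2% of all genes, of which 15.8% rose and 18.4% fell. The median log2 difference was 0.05 over the 23 genes and 0.01 over all genes. For ERRKO_CL over WT_CL 5 rose and 4 fell, 39.1% against 41.5%, of which 19.8% rose and 21.6% fell. For WT_CL over WT_PBS 3 rose and 1 fell, 17.4% against 30.5%, of which 17.9% rose and 12.6% fell. For ERRKO_CL over ERRKO_PBS none rose and 1 fell, 4.35% against 10.3%, of which 6.68% rose and 3.62% fell. In that comparison edgeR called 0 of the 22 genes with recovered reads and DESeq2 2, and 4 of the 23 had an unadjusted limma p under 0.05. For the interaction limma called 0 of the 23, with 1 at an unadjusted p under 0.05, and edgeR and DESeq2 called 0 of the 22. On the deposited scale, where the median of all genes lay at 0.53, 0.63 and -0.26 in the first 3 of these comparisons, the balance was another. There 10 of the 23 rose and 1 fell for ERRKO_PBS over WT_PBS, against 66.3% and 6.22% of all genes. For ERRKO_CL over WT_CL 10 rose and 2 fell, against 70.5% and 6.62%. For WT_CL over WT_PBS 2 rose and 4 fell, against 7.2% and 38.1%. For ERRKO_CL over ERRKO_PBS none rose and 2 fell, against 3.23% and 13.7%.

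The filter used the mean over all 12 libraries, so a low gene can have passed it through the groups where it is high. Of the list genes named here, Kcnh2 and Kcne1l passed through the ERRKO groups, both of their WT means lying under 0.5 RPKM, so that their genotype calls are not independent of the filter. At least 1 group mean was also under 0.5 RPKM for Kcnj11, Kcnj15, Kcnab3, Fxyd7 and Akap5.

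Among voltage-gated subunits 6 of 15 rose and 1 fell for ERRKO_PBS over WT_PBS, 46.7% against 34.2% of all genes. Kcnh2, which encodes the hERG channel of repolarization, had 2.90, 3.00 and 4.62 RPKM in ERRKO_PBS, against 0.101, 0.252 and 0.261 in WT_PBS. These 2 groups did not overlap, and it rose by 2.49 ± 0.21 (log2 ± SE, limma adjusted p = 2.41e-06) under PBS and by 1.83 ± 0.21 (limma adjusted p = 2.35e-05) under CL316,243. Kcns3, a silent modifier of Kv2 channels, rose by 0.99 under PBS and 0.77 under CL316,243, and the accessory subunit gene Kcne1l rose by 1.10 and 1.31. limma called none of these 3 for CL316,243 in either genotype on the median-ratio scale, while edgeR called Kcnh2 for WT_CL over WT_PBS at 1.15 (adjusted p = 0.046).

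For the agonist in WT mice 2 of 15 voltage-gated genes rose and 1 fell, 20% against 30.5% of all genes. On the deposited scale 2 rose and 2 fell, against 7.2% and 38.1% of all genes. The accessory subunit gene Kcnab3 was among those that rose, by 0.77, and the delayed rectifier Kcna2 fell by 0.55. Kcnab3 passed the filter through WT_CL, so its rise is not independent of the filter. Of the calcium-activated channels, Kcnn1, which encodes SK1, rose by 0.47 ± 0.13 in WT_CL over WT_PBS (limma adjusted p = 0.0189), and not on the deposited scale, where its log2 difference was 0.21.

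Among inward rectifiers 1 of 5 rose and 2 fell for ERRKO_PBS over WT_PBS, 60% against 34.2% of all genes. On the deposited scale 1 rose and 1 fell, against 66.3% and 6.22% of all genes. Kcnj11, which encodes the pore Kir6.2 of the ATP-sensitive channel, had 0.0448, 0.179 and 1.35 RPKM in ERRKO_PBS, against 1.73, 2.32 and 2.91 in WT_PBS. It fell by 1.66 ± 0.36 (limma adjusted p = 0.00361), and by 2.05 ± 0.36 for ERRKO_CL over WT_CL (limma adjusted p = 0.00066). Kcnj15, which encodes Kir4.2, had 1.79, 3.83 and 4.34 RPKM in ERRKO_PBS, against 0.492, 0.590 and 1.19 in WT_PBS, and rose by 1.57 ± 0.32 (limma adjusted p = 0.00259). With CL316,243 in ERRKO mice Kcnj15 fell by 1.12 ± 0.32 (limma adjusted p = 0.0473), a call lost with quantile normalization (adjusted p = 0.0597), with edgeR (adjusted p = 0.0528) and in most fits that left out 1 library. Kcnj8, which encodes the vascular subunit Kir6.1, fell by 0.75 under PBS and 0.63 under CL316,243 between genotypes. With deposited RPKM these differences were -0.19 and 0.05, and neither was called.

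The sodium-potassium pump sets the gradient that potassium channels use, and 15 of 18 genes for its subunits and for chloride cotransporters reached the filter. Of the 15, 2 rose and 4 fell for ERRKO_PBS over WT_PBS, 40% against 34.2% of all genes, and 1 rose and 5 fell for ERRKO_CL over WT_CL, 40% against 41.5%. With the agonist 3 rose and 4 fell for WT_CL over WT_PBS, 46.7% against 30.5%, and 1 rose and 1 fell for ERRKO_CL over ERRKO_PBS, 13.3% against 10.3%. In deposited RPKM 7 rose and none fell in each genotype comparison, 46.7%. There 66.3% of all genes rose and 6.22% fell for ERRKO_PBS over WT_PBS, and 70.5% and 6.62% for ERRKO_CL over WT_CL. On that scale 2 rose and 6 fell for WT_CL over WT_PBS, against 7.2% and 38.1% of all genes. For ERRKO_CL over ERRKO_PBS 1 rose and 4 fell, against 3.23% and 13.7%. Atp1b3, a β subunit of the pump, fell by 0.79 ± 0.10 for ERRKO_PBS over WT_PBS (limma adjusted p = 5.81e-05), and on the deposited scale, at -0.20, it was not called. The cotransporter gene Slc12a4 rose by 0.82 for ERRKO_CL over WT_CL and fell by 0.78 for WT_CL over WT_PBS.

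Fxyd1, which encodes the pump regulator phospholemman, and Fxyd7, another pump regulator, rose with CL316,243 in WT mice and not in ERRKO mice. Fxyd7 had a log2 difference of -0.51 in ERRKO and 1.09 in WT, with an interaction of -1.60 ± 0.30 (limma adjusted p = 0.0143). Fxyd1 had -0.03 in ERRKO and 0.98 in WT, with an interaction of -1.01 ± 0.25 (limma adjusted p = 0.0478), and that call was lost under several alternatives. These were the 2 genes of the ion transport lists that passed the interaction test, and both were negative, 3.64% of 55 against 3.89% of all genes, of which 1.88% were positive and 2.02% negative. Fxyd7, at chr7:31042513-31051467, and Fxyd1, at chr7:31051678-31057199, lie close together on the minus strand. Whether their 2 calls are separate results was not tested.

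Calcium entry channels are the current that open potassium channels oppose, and 17 of 33 listed genes reached the filter. Of the 17, 3 rose for ERRKO_PBS over WT_PBS, 17.6% against 34.2% of all genes, and 2 rose and 1 fell for ERRKO_CL over WT_CL, 17.6% against 41.5%. With the agonist 4 rose and 1 fell for WT_CL over WT_PBS, 29.4% against 30.5%, and 1 rose and 1 fell for ERRKO_CL over ERRKO_PBS, 11.8% against 10.3%. In deposited RPKM 15 rose and none fell for ERRKO_PBS over WT_PBS, 88.2%, where 66.3% of all genes rose and 6.22% fell. On that scale 11 rose and none fell for ERRKO_CL over WT_CL, 64.7%, where 70.5% of all genes rose and 6.62% fell. For WT_CL over WT_PBS the balance turned to 1 that rose and 6 that fell, against 7.2% and 38.1% of all genes. Trpv1, which encodes the cation channel opened by heat and capsaicin, had 1.88, 2.25 and 3.72 RPKM in ERRKO_PBS, against 0.388, 0.562 and 0.596 in WT_PBS. It rose by 1.58 ± 0.21 (limma adjusted p = 0.000103), and by 1.14 ± 0.21 for ERRKO_CL over WT_CL (limma adjusted p = 0.000919). These calls of Trpv1 are not independent of the filter, which it passed through the ERRKO groups. Cacna2d1, an accessory subunit of voltage-gated calcium channels, rose by 1.14 ± 0.25 for ERRKO_PBS over WT_PBS (limma adjusted p = 0.00383). Orai3, a pore subunit of store-operated calcium entry, rose with CL316,243 by 0.72 ± 0.10 in ERRKO (limma adjusted p = 0.00122) and by 0.47 ± 0.10 in WT (limma adjusted p = 0.00384), the second not on the deposited scale. Pooled over the pump, calcium entry and potassium channel lists, 34.5% of 55 genes were called for ERRKO_PBS over WT_PBS, 32.7% for ERRKO_CL over WT_CL, 29.1% for WT_CL over WT_PBS and 9.09% for ERRKO_CL over ERRKO_PBS, against 34.2%, 41.5%, 30.5% and 10.3% of all genes.

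Proteins known to regulate or bind TREK-1 or TASK-1 formed the last list, of which 35 of 43 genes reached the filter. Of the 35, 9 rose and 8 fell for ERRKO_PBS over WT_PBS, 48.6% against 34.2% of all genes, and 5 rose and 7 fell for ERRKO_CL over WT_CL, 34.3% against 41.5%. With the agonist 8 rose and 3 fell for WT_CL over WT_PBS, 31.4% against 30.5%, and 2 rose and 2 fell for ERRKO_CL over ERRKO_PBS, 11.4% against 10.3%. On the deposited scale 25 rose and none fell for ERRKO_PBS over WT_PBS, 71.4%, where 66.3% of all genes rose and 6.22% fell. The median log2 difference there was 0.62, against 0.53 for all genes. On that scale 27 rose and 1 fell for ERRKO_CL over WT_CL, 80%, where 70.5% of all genes rose and 6.62% fell. For WT_CL over WT_PBS the balance turned to 5 that rose and 15 that fell, against 7.2% and 38.1% of all genes. Ywhab, which encodes the 14-3-3β protein, of the family that binds the TASK-1 tail and aids its export, had 139, 146 and 163 RPKM in ERRKO_PBS, against 74.7, 82.1 and 91.0 in WT_PBS. It rose in 4 comparisons, by 0.85 for ERRKO_PBS over WT_PBS, 0.84 for ERRKO_CL over WT_CL, 0.51 for ERRKO_CL over ERRKO_PBS and 0.53 for WT_CL over WT_PBS (SE 0.10 each, limma adjusted p from 3.74e-05 to 0.00946), and on the deposited scale the last of these was not called. The groups of Ywhab had the same order as those of Kcnk2. Ywhae, Ywhag, Ywhah, Ywhaq and Ywhaz, of the same family, did not have that order. Each of them averaged more in ERRKO_PBS than in ERRKO_CL, as Ywhah did at 33.6 against 24.2 RPKM.

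Prkar2b, which encodes the main regulatory subunit of protein kinase A in fat, had 440, 445 and 468 RPKM in ERRKO_CL, 210, 216 and 237 in ERRKO_PBS, 660, 660 and 676 in WT_CL, and 287, 332 and 369 in WT_PBS. With CL316,243 it rose by 1.03 ± 0.11 in ERRKO (limma adjusted p = 0.000437) and by 1.02 ± 0.11 in WT (limma adjusted p = 6.99e-05). Prkca, which encodes protein kinase Cα, rose by 0.86 ± 0.14 for ERRKO_PBS over WT_PBS (limma adjusted p = 0.000513). Akap5, which encodes an anchoring protein that binds TREK-1, fell by 1.25 ± 0.21 for ERRKO_CL over WT_CL (limma adjusted p = 0.000563). Of the Gq-coupled receptors, Ednra, the endothelin A receptor, rose by 1.25 ± 0.23 for ERRKO_PBS over WT_PBS (limma adjusted p = 0.0011). Ednra was not called for ERRKO_CL over WT_CL, at 0.23, and fell by 0.83 ± 0.23 with CL316,243 in ERRKO (limma adjusted p = 0.0382). Agtr1a fell by 0.52 ± 0.17 for ERRKO_PBS over WT_PBS (limma adjusted p = 0.0354), and at -0.004 on the deposited scale it was not called. The α1-adrenergic receptor gene Adra1a rose by 1.03 ± 0.22 for WT_CL over WT_PBS (limma adjusted p = 0.00511). Adra1d was not called in any comparison on the median-ratio scale.

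The nearest genes on each side of Kcnk2 and Kcnk3 were read as well. The nearest tested neighbour of Kcnk2, Kctd3, lies 200089 bases away and had 14.7, 15.8 and 16.3 RPKM in ERRKO_PBS, against 11.6, 11.8 and 12.0 in WT_PBS. It rose by 0.39 ± 0.07 in that comparison (limma adjusted p = 0.00148) and by 0.49 ± 0.07 for ERRKO_CL over WT_CL (limma adjusted p = 0.000225). With CL316,243 Kctd3 rose by 0.40 in ERRKO and 0.30 in WT, and the second difference was -0.01 on the deposited scale. Ptpn14, a tyrosine phosphatase gene 325995 bases from Kcnk2 on its other side, rose by 0.60 ± 0.14 for ERRKO_PBS over WT_PBS (limma adjusted p = 0.00505). Cenpf, another of the nearest genes, did not reach the filter.

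Gm9899 overlaps the start of Kcnk3 on the opposite strand, at chr5:30573987-30588619, and shares 5.76% of the exon bases of Kcnk3. No source used here states whether counting used strand, so reads of the shared bases cannot be told apart. Gm9899 had 2.21, 3.07 and 3.87 RPKM in ERRKO_PBS, against 8.46, 9.60 and 10.2 in WT_PBS, and it was named because of the overlap. It fell by 1.504 ± 0.16 for ERRKO_PBS over WT_PBS (limma adjusted p = 1.71e-05) and by 1.43 ± 0.16 for ERRKO_CL over WT_CL (limma adjusted p = 1.91e-05), and both calls were made on the deposited scale too, at -0.98 and -0.77. Slc35f6, 22662 bases beyond the end of Kcnk3, fell by 0.55 under PBS and 0.77 under CL316,243 between genotypes, and on the deposited scale neither difference was called, at -0.004 and -0.11. Cib4, 1700001C02Rik and Mir5625, the other nearest genes, did not reach the filter. For Kcnk2, 12.2% of its exon bases are shared with A430027H14Rik. GENCODE M21 has A430027H14Rik as a separate gene, while RefSeq lists it as a synonym of Kcnk2.

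Genes whose levels followed Kcnk2 most closely were ranked by Pearson correlation of log2 RPKM over the 12 libraries, which share the same 4 groups, and the values carry no p. The highest were Hapln3 at 0.98, Tbc1d16, Ccdc50, Brpf3 and Rxra, with coefficients of 0.975 to 0.976 for these 4. Rxra, which encodes the nuclear receptor RXRα, averaged 34.4 ± 2.89 RPKM in ERRKO_CL, 28.1 ± 2.93 in ERRKO_PBS, 14.7 ± 0.495 in WT_CL and 10.5 ± 0.501 in WT_PBS. The lowest were Pttg1 at -0.988, Pdgfd at -0.979 and Tmem25 at -0.975. Pdgfd, a platelet-derived growth factor gene, averaged 2.62 RPKM in ERRKO_CL, 4.88 in ERRKO_PBS, 7.88 in WT_CL and 16.3 in WT_PBS.

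For Kcnk3 the highest coefficients were those of Pccb at 0.973, Tmem143 at 0.971, Pdk2 at 0.967, Cab39 at 0.965 and Cidea at 0.963. Pccb encodes a subunit of mitochondrial propionyl-CoA carboxylase, Pdk2 a kinase that holds back pyruvate dehydrogenase, and Cidea a protein that enlarges lipid droplets in brown adipocytes. Cidea averaged 364 RPKM in ERRKO_CL, 123 in ERRKO_PBS, 1682 in WT_CL and 1175 in WT_PBS. The lowest were Cmklr1 at -0.969, Shisa5 at -0.966 and Fgf2 at -0.96. Between Kcnk2 and Kcnk3 themselves the coefficient was -0.638 over the 12 libraries.

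Markers of the cell types in the depot moved with the groups as well. The 7 brown adipocyte markers summed to 648 to 816 RPKM in ERRKO_CL, 175 to 292 in ERRKO_PBS, 5115 to 6474 in WT_CL and 2087 to 3185 in WT_PBS, the same order of groups as Kcnk3 on the median-ratio scale. On that scale 5 of these 7 fell for ERRKO_PBS over WT_PBS and 5 for ERRKO_CL over WT_CL, against 18.4% and 21.6% of all genes. Calls of these markers on the deposited scale are not given here. The 4 fibroblast and preadipocyte markers summed to 211 to 269 RPKM in ERRKO_CL, 373 to 393 in ERRKO_PBS, 57.4 to 67.6 in WT_CL and 75.0 to 145 in WT_PBS. Their group ranges were higher in ERRKO than in WT under either injection, and lower in CL than in PBS for both genotypes. Of the 4, 1 rose for ERRKO_PBS over WT_PBS and 3 for ERRKO_CL over WT_CL, against 15.8% and 19.8% of all genes. For WT_CL over WT_PBS 2 fell and for ERRKO_CL over ERRKO_PBS 1, against 12.6% and 3.62%. The median log2 differences of the 4 were 0.41, 0.78, -0.45 and -0.11 in these comparisons. The part of these cell types in the levels of Kcnk2 and Kcnk3 was not tested.

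Other cell types of the depot were read in the same way. The 10 vascular smooth muscle and pericyte markers summed to 241 to 250 RPKM in ERRKO_CL, 248 to 276 in ERRKO_PBS, 221 to 241 in WT_CL and 197 to 271 in WT_PBS. The 6 pan-adipocyte markers summed to 19500 to 19720 RPKM in ERRKO_CL, 11680 to 15900 in ERRKO_PBS, 16620 to 17750 in WT_CL and 10970 to 16020 in WT_PBS. The 5 endothelial markers summed to 143 to 162 RPKM in ERRKO_CL, 148 to 150.3 in ERRKO_PBS, 165 to 200.4 in WT_CL and 157 to 238 in WT_PBS, and the 4 macrophage markers to 19.1 to 22.2, 31.1 to 35.9, 11.5 to 18.4 and 23.7 to 52.9 RPKM in the same groups. The 10 Schwann cell and nerve markers summed to 39.6 to 97.3 RPKM in ERRKO_CL, 59.2 to 83.2 in ERRKO_PBS, 97.2 to 149 in WT_CL and 65.3 to 130 in WT_PBS, with Th at 0 in ERRKO_PBS and both WT groups and Nefl at 0 in ERRKO_CL and WT_PBS. The 10 skeletal muscle markers summed to 232 to 1610 RPKM in ERRKO_CL, 135 to 2901 in ERRKO_PBS, 63.9 to 410 in WT_CL and 36.6 to 307 in WT_PBS, and limma called 0 of them in any comparison. For ERRKO_PBS over WT_PBS 6 of the 10 had an unadjusted p under 0.05, edgeR called 0 and DESeq2 called 1. The medians of these sums, 734 RPKM in ERRKO_CL, 410 in ERRKO_PBS, 134 in WT_CL and 62.9 in WT_PBS, had the same order of groups as Kcnk2. The median log2 difference of the 10 markers was 3.87 for ERRKO_PBS over WT_PBS and 3.28 for ERRKO_CL over WT_CL. Within ERRKO_CL the library with the highest muscle sum, replicate 3, also had the highest Kcnk2, 27.1 RPKM. Within ERRKO_PBS the library with the highest muscle sum, replicate 3, had 12.3 RPKM of Kcnk2, between the other 2 libraries. In WT_CL replicate 3 had the highest muscle sum and the lowest Kcnk2, and in WT_PBS replicate 1 had the highest muscle sum and the middle Kcnk2. The part of skeletal muscle in the level of Kcnk2 was not tested.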

How the data were processed

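Total RNA of brown adipose tissue was sequenced in 12 libraries of 4 groups, taken from the labels. The main table holds RPKM values deposited by the authors. The second deposited table holds a linear signal for 12380 genes, which is a whole multiple of a step in each library, so reads were recovered by division (100% whole within a tolerance of 0.01). Per the submitters' processing notes, the tools were STAR 2.3.0, cutadapt, bcl2fastq 2.16.0.10 and edgeR, and mm9 and mm10 the builds, in unstated roles. No source used here names the counting tool, its strand setting or the library size behind the RPKM.

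limma 3.58.1 in R 4.3.3 was fitted, with trend, to log2 of median-ratio-scaled RPKM plus 0.5 over the 12249 genes whose mean RPKM reached 0.5, as 4 group means from all 12 libraries. Each of 5 comparisons had its p-values adjusted separately (Benjamini-Hochberg), with calls at 0.05. edgeR 4.0.16 quasi-likelihood and DESeq2 1.42.0 were run on the recovered reads as alternatives. Log2 differences of low genes are understated by the added 0.5.

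Kcnk2, Kcnk3, the gene lists, the cell type markers and the scaling were chosen with earlier results of these data known. Named genes were all two-pore genes, up to 4 genes with the smallest p in each list and comparison, the 2 nearest genes on each side of Kcnk2 and Kcnk3, the 5 most and 3 least correlated genes for each, and Esrra. Some genes that these rules name are not reported here. Gm9899, Esrrg, Agtr1a and Adra1d were added after their values were seen. Coordinates are 1-based, from GENCODE M21 on GRCm38 and RefSeq on GRCm38.p6, not from the files. The fit was tested on simulated data. A further 9 stray cells of the deposited tables were not used.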

Additional observations from a re-analysis of the deposited data

Results flagged for a closer look

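For 2 pump regulator genes the response to CL316,243 differed between the genotypes by the interaction term of limma, the test of the difference itself. Fxyd7 averaged 1.09 RPKM in ERRKO_CL and 1.71 in ERRKO_PBS, and 1.31 in WT_CL and 0.343 in WT_PBS, an interaction of -1.6 on the log2 scale (adjusted p = 0.0143). Fxyd1 averaged 95.2 RPKM in ERRKO_CL and 97.3 in ERRKO_PBS, and 105 in WT_CL and 54.5 in WT_PBS, an interaction of -1.01 (adjusted p = 0.0478). Without both ERRKO replicate 3 libraries the adjusted p of Fxyd1 was 0.162.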

How the results depend on the processing

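Every Kcnk2 difference kept its sign under all alternatives. The size of those that involve WT_PBS followed the pseudocount most, since WT_PBS rests on 16 to 31 reads. For ERRKO_PBS over WT_PBS the difference was 4.34 on the deposited scale, 4.67 and 3.28 with 0.1 and 1 added, 4.95 with edgeR and 4.93 with DESeq2. For ERRKO_CL over WT_CL it was 3.37 on the deposited scale, and 2.88 and 2.57 with 0.1 and 1 added. For ERRKO_CL over ERRKO_PBS it was 0.87 and 0.83 with 0.1 and 1 added. For WT_CL over WT_PBS it was 1.64 on the deposited scale, 2.66 and 1.54 with 0.1 and 1 added, and 2.91 with edgeR and with DESeq2. The Kcnk2 interaction was -1.79 and -0.71 with 0.1 and 1 added, -2.06 with edgeR and -2.03 with DESeq2. Kcnk3 was -0.57 for ERRKO_PBS over WT_PBS and -0.075 for ERRKO_CL over WT_CL on the deposited scale, -0.53 for the second with quantile normalization, and -0.066 for WT_CL over WT_PBS on the deposited scale, a reversal.

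Of the 55 ion transport genes, 19 were called for ERRKO_PBS over WT_PBS, 33 on the deposited scale and 10 with a mean RPKM of at least 2. The fit with no filter can hold more genes of the lists, and the fit with a mean RPKM of at least 2 holds fewer. The counts of those 2 fits are therefore not out of 55. For ERRKO_CL over WT_CL 18 were called, 30 on the deposited scale and 31 with no filter. For WT_CL over WT_PBS 16 were called, 25 with no filter and 9 with at least 2. For ERRKO_CL over ERRKO_PBS 5 were called, 9 on the deposited scale, 3 with at least 2, 8 with DESeq2 and 3 without both ERRKO replicate 3 libraries, an alternative chosen after seeing the data. For the interaction 2 were called, 4 on the deposited scale, 0 with edgeR, and 1 with 0.1 added, with at least 2, with the replicate block and without both ERRKO replicate 3 libraries. Of the 2, Fxyd7 is not among the genes whose reads could be recovered, so edgeR did not test it. Fxyd1 had an edgeR adjusted p of 0.0529. On the deposited scale the 33 were 60% of the 55, where 66.3% of all genes rose and 6.22% fell. The 30 were 54.5%, against 70.5% and 6.62%, and the 9 were 16.4%, against 3.23% and 13.7%. The 4 interaction calls were 7.27%, where 475 of 12249 genes were positive and 154 negative. Shares of all genes under the other alternatives are not given here.

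Leaving out each library in turn gave Kcnk2 differences of 3.75 to 3.96, 2.63 to 2.88, 1.83 to 2.09 and 0.75 to 0.92 for the 4 comparisons in the order above, with an interaction of -1.23 to -0.98. The Kcnk3 differences were -1.35 to -0.98, -0.83 to -0.72, 0.19 to 0.30 and 0.45 to 0.82, with an interaction of 0.19 to 0.56. The called genes numbered 16 to 19, 13 to 19, 14 to 20 and 1 to 5, and 1 to 2 for the interaction. The lowest count for ERRKO_CL over ERRKO_PBS came without ERRKO_CL replicate 2.

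On the deposited scale the genes Kcnj8 (0.051), Slc12a2 (0.20), Slc12a7 (0.042) and Trpm7 (0.37), all for ERRKO_CL over WT_CL, Prkar1a (0.18 for ERRKO_PBS over WT_PBS) and Kctd3 (-0.012 for WT_CL over WT_PBS) changed sign. Of 65 results for single genes, 50 kept their call and sign under every setting other than scaling. Fxyd1 lost its interaction call in most alternatives, and Kcnj15 its fall in ERRKO with CL316,243 in most fits that left out a library. Same-numbered libraries of different groups correlated at -0.389 to 0.454 in their deviations. With 3 libraries per group this cannot settle whether the numbers pair samples. With equal groups the replicate block cannot move a difference of means (3.86 for Kcnk2 and -1.16 for Kcnk3, ERRKO_PBS over WT_PBS), and the SE became 0.161 for Kcnk2, against 0.152, and 0.132 for Kcnk3, against 0.15 without the block. The lowest levels are limited by depth.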
